A study of Mus musculus with 8 samples.

Results

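Dendritic cells (DC) carry antigen to the lymph node (LN), where they show it to T cells together with costimulatory signals. The 10 genes described here serve that work. They are Cd80, Cd86, Cd40 and Cd83 for costimulation, Fscn1, Ccl22 and Ccl17 for migration and for attracting other cells, and Itgax, Flt3 and Xcr1 as genes by which DC and their subsets are recognised. They were chosen by name, and a gene's values are those of its brightest probe set on the array among the probe sets annotated to that gene alone. All 10 were measured, with 18 probe sets in all, among 12393 genes that had a probe set of their own.

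As background, a resting DC that meets a microbial product raises CD80 and CD86, the ligands of CD28 and CTLA-4 on T cells, and becomes responsive to CD40 ligand through CD40. The maturing cell assembles fascin, the actin-bundling protein encoded by Fscn1, into the dendrites with which it moves, and it enters the LN along gradients of CCR7 ligands. Mature DC also release CCL17 and CCL22, the ligands of CCR4 on activated and regulatory T cells. FLT3 is the cytokine receptor on which DC development depends, Itgax encodes CD11c, and XCR1 marks the cross-presenting conventional DC and binds the chemokine XCL1 from NK and CD8 T cells.

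LN RNA was hybridized to 8 Affymetrix mouse arrays, each from a pool of at least 3 mice. The mice were 8 weeks old and of both sexes. The groups were H3RKO CFA+PTX and WT CFA+PTX with 1 array each, H3RKO CFA and WT CFA with 1 array each, and H3RKO untreated and WT untreated with 2 arrays each. H3RKO mice lack the histamine H3 receptor, encoded by Hrh3, throughout the body, and both genotypes were on the C57Bl/6 background. By the paper's methods, C57Bl/6 mice were purchased, while the H3RKO line was kept at the authors' university. The paper's name for that line includes a strain other than C57Bl/6. Loss of the receptor, strain makeup and origin of the mice therefore cannot be told apart. CFA is complete Freund's adjuvant, mycobacteria in oil. PTX is pertussis toxin, given together with CFA in the arrays whose titles name PTX alone. LN were taken the day after injection by the study's methods. The tissue was whole LN, so fewer cells of a type and less RNA per cell cannot be told apart. Values are log2 signals, on which 1 unit is 2-fold, and each pool counts as 1 sample. Nothing in the sources says how far the pools of a group differ in origin, so p-values measure the spread between these pools only.

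The arrays differed in more than the groups. The mean log2 signal of 6 salivary and lacrimal gland genes was 5.24 in WT CFA+PTX and 9.78 in WT untreated replicate 1, against 12.1 to 12.5 in the other 6 arrays. The mean of 9 neutrophil genes was 8.21 to 8.78 in the H3RKO arrays, against 7.73 to 8.08 in the WT arrays. The difference between 3′ and 5′ control probe sets, a sign of RNA quality, was 0.30 to 0.44 on the log2 scale in the injected arrays, against 0.16 to 0.31 in the untreated arrays. The Hrh3 probe set gave 7.20 to 7.29 in H3RKO arrays, against 6.56 to 6.66 in WT arrays. Its place relative to the deleted part is not given in the sources used here, so it does not check the labels.

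RefSeq promoter sequences (GRCm38.p6) matched 7 of the 10 genes, and Cd86, Cd40 and Cd83 were not among them. The 250 bases before the annotated start are printed for Xcr1, the gene with the widest range over the arrays, and for Ccl22 and Ccl17, the chemokine pair that differed most between genotypes. Capitals mark matches to GGGNNNNNCC on either strand, a loose form of the site of NF-κB, the transcription factor family activated during DC maturation. N stands for any base.
Xcr1 (chr9:123862030-123862279, minus strand): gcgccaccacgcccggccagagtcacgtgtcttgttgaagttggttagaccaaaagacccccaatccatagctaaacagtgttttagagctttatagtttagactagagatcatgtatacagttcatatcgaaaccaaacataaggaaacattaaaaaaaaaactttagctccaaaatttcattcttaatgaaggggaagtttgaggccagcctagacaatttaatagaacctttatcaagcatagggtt
Ccl22 (chr8:94745434-94745683, plus strand): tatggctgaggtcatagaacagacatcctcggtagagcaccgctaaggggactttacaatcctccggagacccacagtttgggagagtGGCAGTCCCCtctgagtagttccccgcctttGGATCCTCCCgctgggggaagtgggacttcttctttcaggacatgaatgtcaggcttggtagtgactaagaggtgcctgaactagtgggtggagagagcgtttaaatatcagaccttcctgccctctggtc
Ccl17 (chr8:94810203-94810452, plus strand): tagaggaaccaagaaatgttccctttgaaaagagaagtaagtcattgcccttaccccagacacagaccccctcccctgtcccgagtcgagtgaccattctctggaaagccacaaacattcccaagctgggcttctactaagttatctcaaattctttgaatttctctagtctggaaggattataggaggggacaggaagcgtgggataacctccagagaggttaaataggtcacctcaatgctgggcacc
Ccl22 and Ccl17 lie on the same chromosome with Cx3cl1 between them. The motif was found 2 times before Ccl22 and not in the windows of Ccl17 and Xcr1. It was present in 3 of the 7 promoters, those of Ccl22, Cd80 and Fscn1, and in 45.8% of all 32851 promoters of this length in the table. A match is only a match of letters.

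The first question was whether injection of adjuvant changed these genes in LN. None of the 10 passed the test (limma, adjusted p under 0.05 over all 22626 probe sets) in the 4 injected arrays against the 4 untreated arrays. This count of 0 stands beside a background of 0.0323% of all genes, namely Saa3, Fn1, Mmp3 and Postn, which are named here after their values were seen. At an unadjusted p under 0.05 there were 2 of the 10, Xcr1 and Cd83, both lower after injection, beside 11.1% of all genes. These were also the 2 genes whose injected arrays all lay below their untreated arrays, 20% of the 10, where 6.29% of all genes did not overlap in either direction. The confidence intervals (95%) of all 10 genes lay within a 2-fold change either way. Against the untreated arrays, 0 of the 10 passed with CFA alone and 0 with CFA+PTX, and 0% of all genes passed in either comparison. At an unadjusted p under 0.05 there were 2 of the 10 with CFA, beside 6.08% of all genes, and 3 of the 10 with CFA+PTX, beside 13.1%. CFA+PTX set against CFA gave 0 of 10 as well, with 0% of all genes called. Xcr1 alone of the 10 was under an unadjusted p of 0.05 there, as were 5.99% of all genes. An ordinary linear model also called 0 of the 10 in each of these comparisons.

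**Figure D1:**
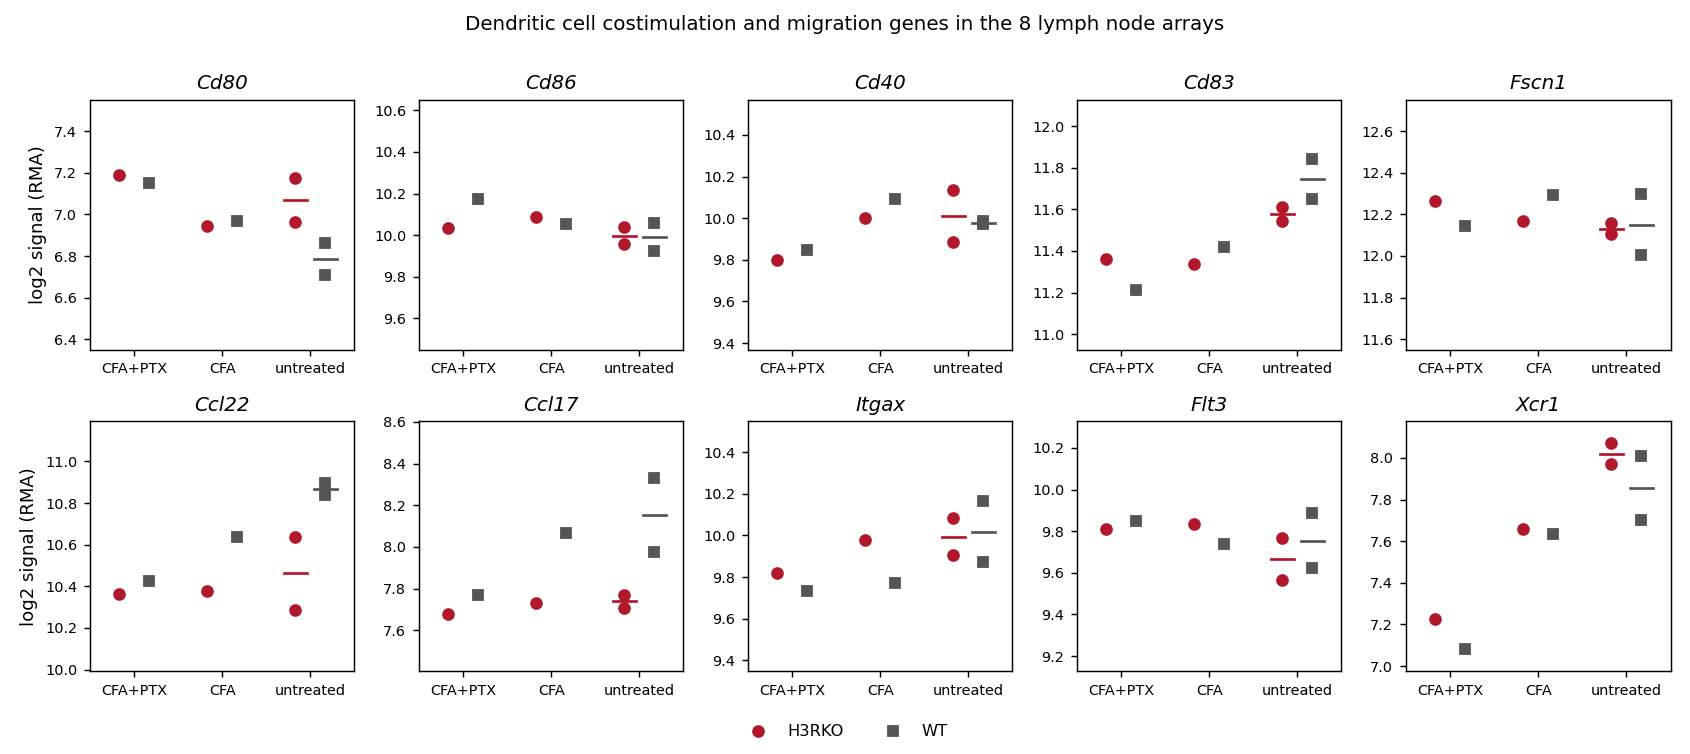
Log2 signal (vertical axis, every panel spanning 1.2 units) of the 10 genes in the 8 arrays by treatment, with H3RKO as circles and WT as squares and short bars at the mean of each untreated pair. Xcr1 and Cd83 lie lower in all 4 injected arrays than in all 4 untreated arrays, while the other 8 genes have overlapping groups and range over 0.25 to 0.65 units.

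Xcr1 had the largest difference of the 10. Its log2 signal was 7.23 in H3RKO CFA+PTX and 7.08 in WT CFA+PTX, 7.66 in H3RKO CFA and 7.64 in WT CFA, against 7.97 and 8.07 in the H3RKO untreated arrays and 8.01 and 7.70 in the WT untreated arrays. Both CFA+PTX arrays stood clearly apart at the low end. The CFA arrays were only just below the lowest untreated array, by 0.05 units, which is less than the 0.31 between the WT untreated arrays. The injected arrays averaged 7.40 ± 0.29 and the untreated arrays 7.94 ± 0.16 (SD, n = 4 each). The difference was −0.54 ± 0.08 (SE), 1.45-fold lower after injection (95% interval −0.72 to −0.36, limma adjusted p = 0.138). The exact permutation test (two-sided) gave p = 0.0286, the smallest that 4 arrays against 4 allow. Any gene whose groups do not overlap gets this value, so it only restates that observation.

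By treatment, the Xcr1 difference from untreated LN was −0.79 ± 0.10 with CFA+PTX, 1.72-fold lower (95% interval −1.01 to −0.56, limma adjusted p = 0.0836). It was −0.29 ± 0.10 with CFA alone (limma adjusted p = 0.753). CFA+PTX set directly against CFA gave −0.49 ± 0.11 (limma adjusted p = 0.855). The CFA+PTX difference was −0.80 within H3RKO and −0.78 within WT, 1 injected array in each case. The difference between these was −0.02 with an interval of −0.57 to 0.53, wide enough to leave sizeable differences between genotypes undetected at this number of arrays. The lowest Xcr1 array, WT CFA+PTX, was also the one nearly without gland signal. Without it and WT untreated replicate 1 the CFA+PTX difference was −0.75 (limma adjusted p = 0.702). Leaving out WT CFA+PTX alone gave −0.77 (limma adjusted p = 0.704).

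XCL1, the ligand of XCR1, is made by NK and activated CD8 T cells. Xcl1 signal was 7.10 in H3RKO CFA+PTX, 7.09 in WT CFA+PTX, 7.33 in H3RKO CFA and 7.30 in WT CFA, against 7.57 and 7.33 in the H3RKO untreated arrays and 7.48 and 7.46 in the WT untreated arrays. The injected arrays lay below the untreated ones, although H3RKO CFA and H3RKO untreated replicate 2 are equal as rounded. The difference was −0.26 ± 0.06 and was not called (limma adjusted p = 0.271). Other genes listed for conventional DC of the XCR1-bearing kind differed little in whole LN. Which cells of the LN gave their signal was not tested, and the listed Clec9a and Wdfy4 were not measured. None of the 7 measured of 9 listed (Batf3, Irf8, Itgae, Cadm1, Tlr3, Naaa and Snx22) was called, and their differences ran between −0.06 and 0.04 after injection and between −0.10 and 0.04 with CFA+PTX. Their mean signal was 9.55 to 9.68 in the injected arrays, against 9.49 to 9.74 in the untreated arrays. Batf3 and Irf8, transcription factors needed for this DC subset, differed by 0.04 ± 0.08 and −0.01 ± 0.05 after injection. A list of 7 NK cell genes had 0 called, 6 lower and a median of −0.18 after injection, and its mean signal was 8.44 to 8.83 in the injected arrays, against 8.58 to 8.88 in the untreated arrays. A list of 9 T cell genes had 0 called, 7 lower and 2 higher. In it Cd8a and Cd8b1, of the CD8 coreceptor, differed by −0.37 ± 0.08 and −0.25 ± 0.06 and were picked after their values were seen. The part of NK cells, of CD8 T cells and of RNA quality, whose 3′ to 5′ difference was higher in most injected arrays, in the Xcr1 difference was not tested.

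Cd83, a surface protein of mature DC and activated B cells that steadies CD86 and MHC class II at the membrane, was the other gene whose groups did not overlap. It read 11.36 in H3RKO CFA+PTX, 11.21 in WT CFA+PTX, 11.34 in H3RKO CFA and 11.42 in WT CFA, against 11.54 and 11.61 in the H3RKO untreated arrays and 11.65 and 11.84 in the WT untreated arrays. The gap between the groups was 0.12 units, less than the 0.19 between the WT untreated arrays. The injected arrays averaged 11.33 ± 0.09 and the untreated arrays 11.66 ± 0.13 (SD, n = 4 each). The difference was −0.33 ± 0.08 (SE), 1.26-fold lower (95% interval −0.51 to −0.15, limma adjusted p = 0.255, exact permutation p = 0.0286, two-sided, again the smallest possible). CFA and CFA+PTX gave similar values, −0.28 ± 0.09 (limma adjusted p = 0.755) and −0.37 ± 0.09 (limma adjusted p = 0.236). The CFA+PTX value was −0.23 without WT CFA+PTX. Set directly against CFA, CFA+PTX differed by −0.09 with an interval of −0.35 to 0.16. Because B cells also express Cd83, their markers are given beside it. Of 10 B cell genes 0 were called, 6 were lower, the median was −0.01, and their mean signal was 11.26 to 11.55 in the injected arrays, against 11.41 to 11.49 in the untreated arrays. By treatment these genes differed in opposite directions, with 8 of 10 higher and a median of 0.09 with CFA, and 9 of 10 lower and a median of −0.08 with CFA+PTX. CFA+PTX set against CFA gave 9 of 10 lower and a median of −0.21. The part of B cells in the Cd83 difference was not tested.

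**Figure D2:**
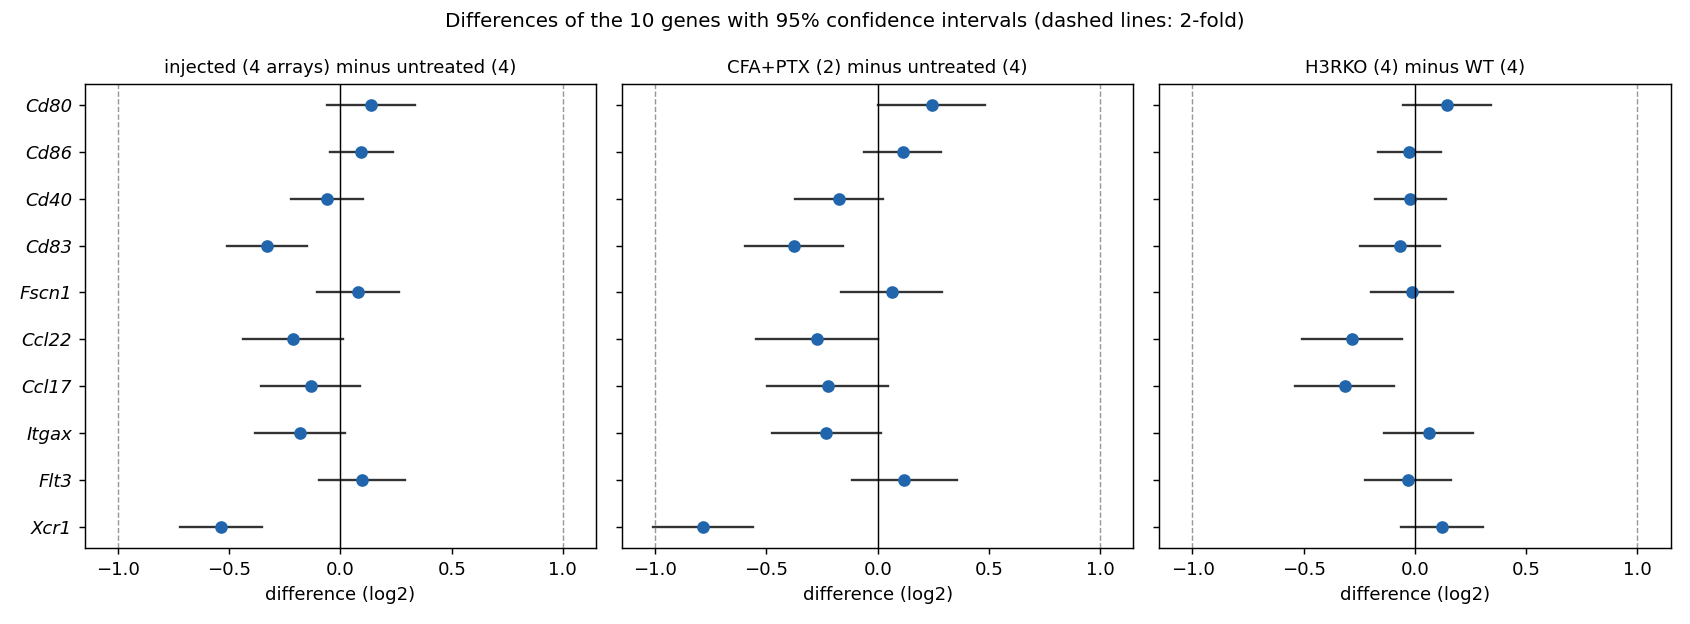
Differences of the 10 genes (points) with 95% confidence intervals (lines) on the log2 scale, for injected minus untreated arrays, CFA+PTX minus untreated arrays and H3RKO minus WT arrays. The dashed lines mark 2-fold, which only the interval of Xcr1 with CFA+PTX passes, at −1.01.

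Cd80 and Cd86 encode the classical costimulatory ligands, and neither was called. Cd86 read 10.04 in H3RKO CFA+PTX, 10.18 in WT CFA+PTX, 10.09 in H3RKO CFA and 10.05 in WT CFA, against 9.96 and 10.04 in the H3RKO untreated arrays and 10.06 and 9.92 in the WT untreated arrays. The groups overlapped, and all 8 arrays lay within 0.25 units. The difference after injection was 0.09 ± 0.06, with an interval of −0.05 to 0.24. The second Cd86 probe set (1449858_at) had a difference of the opposite sign, so that no direction can be given.

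Cd40, the receptor through which helper T cells license DC and activate B cells, read 9.80 in H3RKO CFA+PTX, 9.85 in WT CFA+PTX, 10.001 in H3RKO CFA and 10.09 in WT CFA, against 9.88 and 10.14 in the H3RKO untreated arrays and 9.97 and 9.99 in the WT untreated arrays. Both CFA+PTX arrays were lower than every other array, and the CFA arrays lay within the untreated range. The differences from untreated LN were 0.05 ± 0.08 with CFA and −0.17 ± 0.08 with CFA+PTX, and neither was called. The second probe set of Cd40 (1449473_s_at) differed in sign after injection from the brightest one.

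Cd80 has 4 probe sets. The brightest (1451950_a_at) read 7.19 in H3RKO CFA+PTX, 7.15 in WT CFA+PTX, 6.95 in H3RKO CFA and 6.97 in WT CFA, against 6.96 and 7.17 in the H3RKO untreated arrays and 6.71 and 6.86 in the WT untreated arrays. The CFA+PTX arrays were high, but H3RKO untreated replicate 2 was as high as WT CFA+PTX. The difference with CFA+PTX was 0.24 ± 0.10 (limma adjusted p = 0.405). The next probe set (1432826_a_at) read 6.85 in H3RKO CFA+PTX, 7.10 in WT CFA+PTX, 6.602 in H3RKO CFA and 6.55 in WT CFA, against 6.54 and 6.37 in the H3RKO untreated arrays and 6.59 and 6.29 in the WT untreated arrays. Here both CFA+PTX arrays lay above every other array, and the difference with CFA+PTX was 0.53 ± 0.11 (limma adjusted p = 0.203). The remaining probe sets (1427717_at and 1454372_at) read 3.77 to 4.18, near the lowest value of 2.42 in the data. Their differences after injection were −0.05 ± 0.08 and −0.07 ± 0.10. Those of the brighter probe sets in the same comparison had the opposite sign, 0.14 ± 0.08 and 0.33 ± 0.09. With CFA+PTX the dim probe sets differed by 0.06 ± 0.10 and −0.17 ± 0.13. No Cd80 probe set was called.

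Fscn1, which encodes fascin, was steady by its brightest probe set (1416514_a_at). It read 12.26 in H3RKO CFA+PTX, 12.14 in WT CFA+PTX, 12.17 in H3RKO CFA and 12.29 in WT CFA, against 12.11 and 12.16 in the H3RKO untreated arrays and 12.003 and 12.30 in the WT untreated arrays. The groups overlapped within a range of 0.29 units, and the difference after injection was 0.08 ± 0.08 with an interval of −0.11 to 0.26. Another bright probe set (1448378_at) gave 0.07 ± 0.06. By treatment it differed from untreated LN by 0.18 ± 0.07 with CFA and −0.04 ± 0.07 with CFA+PTX. Both dimmer probe sets (1416515_at and 1416516_at) varied far more, the widest by 1.39 units. They were lowest in H3RKO CFA at 7.52 and 7.18, the array with the largest 3′ to 5′ difference of 0.44. They were highest in H3RKO untreated replicate 2 at 8.72 and 8.57, the array with the smallest, 0.16. Other arrays did not keep this order. At 0.19, WT untreated replicate 1 read 8.69 and 8.39, and H3RKO untreated replicate 1 read 8.01 and 7.87. At 0.31, WT CFA read 8.58 and 8.21, and WT untreated replicate 2 read 7.91 and 7.64. The part of RNA quality in this was not tested. Their differences after injection, −0.20 ± 0.27 and −0.32 ± 0.27, had the opposite sign to those of the bright probe sets.

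**Figure D3:**
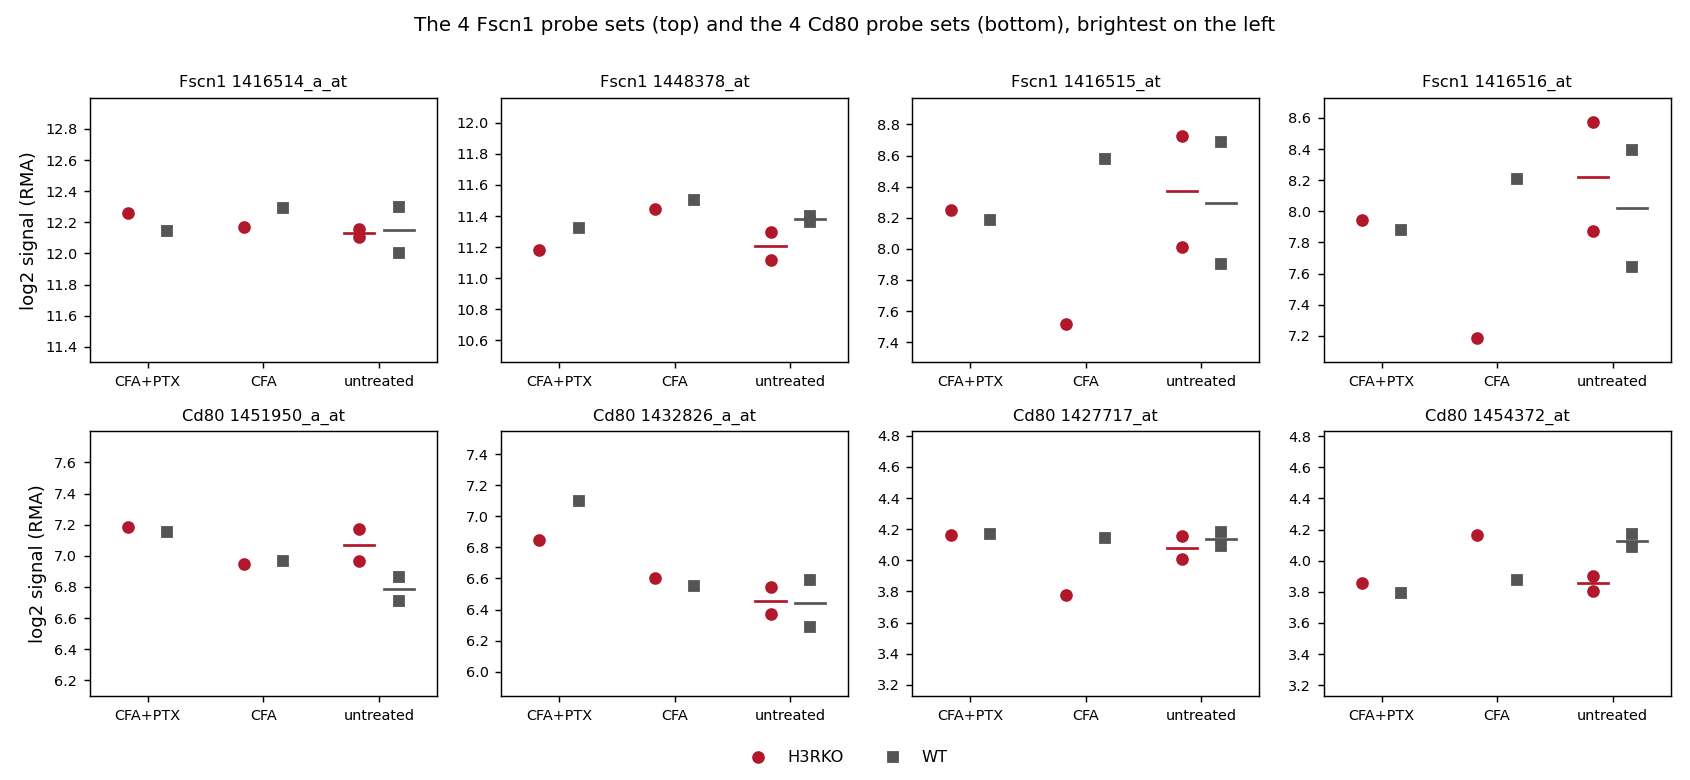
Log2 signal (vertical axis, every panel spanning 1.7 units) of the 4 Fscn1 and the 4 Cd80 probe sets in the 8 arrays by treatment, with H3RKO as circles, WT as squares and short bars at the mean of each untreated pair. The bright Fscn1 probe sets vary less than both dimmer ones, which spread widely within untreated LN, and Cd80 is highest with CFA+PTX in 1432826_a_at.

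The chemokine genes Ccl22 and Ccl17 were not called after injection. Ccl22 read 10.36 in H3RKO CFA+PTX, 10.42 in WT CFA+PTX, 10.38 in H3RKO CFA and 10.64 in WT CFA, against 10.29 and 10.64 in the H3RKO untreated arrays and 10.84 and 10.90 in the WT untreated arrays. WT untreated arrays were the highest, and the injected arrays lay within the range of the H3RKO untreated pair. The difference after injection was −0.21 ± 0.10 (limma adjusted p = 0.475), and −0.14 without WT CFA+PTX. Ccl17 gave −0.13 ± 0.09 (limma adjusted p = 0.659). It was −0.21 without H3RKO CFA+PTX, −0.06 without WT CFA+PTX and −0.04 without WT untreated replicate 2. Ccr4, the receptor of both chemokines, differed by −0.12 ± 0.05 (limma adjusted p = 0.452).

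Itgax, which encodes the CD11c integrin chain carried by most DC and some macrophages, read 9.82 in H3RKO CFA+PTX, 9.73 in WT CFA+PTX, 9.98 in H3RKO CFA and 9.77 in WT CFA, against 9.91 and 10.08 in the H3RKO untreated arrays and 10.16 and 9.87 in the WT untreated arrays. The groups overlapped through H3RKO CFA. The difference after injection was −0.18 ± 0.09 (interval −0.38 to 0.02), and −0.11 without WT untreated replicate 1. Flt3 read 9.81 in H3RKO CFA+PTX, 9.85 in WT CFA+PTX, 9.83 in H3RKO CFA and 9.74 in WT CFA, against 9.57 and 9.77 in the H3RKO untreated arrays and 9.89 and 9.62 in the WT untreated arrays. All injected arrays lay inside the untreated range, and the difference was 0.10 ± 0.08 (interval −0.09 to 0.29). Flt3l, the ligand gene, had no probe set of its own here.

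The second question was whether these genes differed between H3RKO and WT LN. Over all treatments none of the 10 was called between the 4 H3RKO and the 4 WT arrays (limma, adjusted p under 0.05), with 0% of all genes called. At an unadjusted p under 0.05 there were 2 of the 10, Ccl17 and Ccl22, beside 3.84% of all genes. In none of the 10 did the H3RKO and WT arrays fail to overlap, where 1.86% of all genes did. Within a treatment a gene was called by the study's criterion, more than 2-fold at an unadjusted p under 0.05. It called 0 of 10 in untreated LN beside 0.161% of all genes, 0 of 10 with CFA beside 0.145% and 0 of 10 with CFA+PTX beside 0.347%. An unadjusted p under 0.05 alone was reached by 3 of the 10 in untreated LN beside 4.9% of all genes, by 0 with CFA beside 2.35% and by 0 with CFA+PTX beside 3.36%. The ordinary linear model called 0 of 10 in each as well.

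Ccl17 read 7.68 in H3RKO CFA+PTX, 7.73 in H3RKO CFA and 7.71 and 7.77 in the H3RKO untreated arrays, against 7.77 in WT CFA+PTX, 8.07 in WT CFA and 7.98 and 8.33 in the WT untreated arrays. The H3RKO arrays lay close together whatever the treatment, and among the WT arrays only WT CFA+PTX was at their level. H3RKO arrays averaged 7.72 ± 0.04 and WT arrays 8.04 ± 0.23 (SD, n = 4 each). The difference was −0.31 ± 0.09 (SE), 1.24-fold lower in H3RKO (95% interval −0.54 to −0.09, limma adjusted p = 0.999, exact permutation p = 0.0571, two-sided). In untreated LN it was −0.41 ± 0.14 (limma adjusted p = 0.916), and −0.24 without WT untreated replicate 2.

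Ccl22 ran in the same direction. Its H3RKO arrays (10.29 to 10.64) averaged 10.42 ± 0.15 and its WT arrays (10.42 to 10.90) averaged 10.70 ± 0.21 (SD, n = 4 each). The difference was −0.28 ± 0.10 (SE), 1.22-fold lower in H3RKO (95% interval −0.51 to −0.06, limma adjusted p = 0.999, exact permutation p = 0.0857, two-sided). It was −0.19 without H3RKO untreated replicate 1. In untreated LN it was −0.40 ± 0.13 (limma adjusted p = 0.916), and −0.23 without the same array. The genotype differences with CFA+PTX were −0.09 for Ccl17 and −0.06 for Ccl22, with 1 array a group. They differed from those in untreated LN by 0.32 (interval −0.26 to 0.91) and 0.34 (interval −0.24 to 0.92), which were not called. No gene of the 10 was called for such a dependence of genotype on treatment with CFA or with CFA+PTX, and 0% of all genes were. At an unadjusted p under 0.05 there were 0 of the 10 with CFA beside 4.36% of all genes, and 0 with CFA+PTX beside 2.45%. Of the other genes of XCR1-bearing DC, 7 of 7 were lower in H3RKO with a median of −0.09, while Xcr1 itself differed by 0.12 ± 0.08. Of those of mature migratory DC, 13 of 15 were lower with a median of −0.07. Over all genes the median was −0.01, and 46.0% were higher. Monocyte and macrophage genes were lower in 11 of 14 cases and B cell genes in 8 of 10. The B cell median was −0.02, and with CFA+PTX, 1 array a group, 8 of 10 were higher in H3RKO (median 0.10). Genes of conventional DC of the SIRPα kind were lower in 4 of 7 cases. Plasmacytoid DC genes were higher in 6 of 8 cases and T cell genes in 8 of 9. The plasmacytoid DC median was only 0.01. Within treatments of 1 array a group, 8 of 8 of these genes were lower in H3RKO with CFA and 5 of 8 with CFA+PTX. None of the genes in these lists was called. Neutrophil genes were higher in H3RKO arrays in 9 of 9 cases, and the part of the cell makeup in the chemokine values was not tested.

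The other genes had smaller genotype differences over all treatments. Cd80 was the only other one under an unadjusted p of 0.05 in untreated LN, with 0.28 ± 0.11 (limma adjusted p = 0.916). It was 0.18 without H3RKO untreated replicate 2, and its mean over all probe sets gave −0.0075. Over all treatments Itgax, Cd86, Cd40, Fscn1, Flt3, Xcr1 and Cd83 had differences between −0.07 and 0.12, and their intervals stayed between −0.25 and 0.31. Xcr1 was 7.73 ± 0.38 in H3RKO arrays and 7.61 ± 0.39 in WT arrays (SD, n = 4 each), with both CFA+PTX arrays at the low end.

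The surrounding genes were described with 17 lists holding 137 measured genes, none of them among the 10. No gene of any list was called in the 4 treatment comparisons or in the genotype comparison over all treatments. Between genotypes within a treatment, by the study's criterion, 2 of 9 neutrophil genes were called higher in H3RKO in untreated LN and 4 of 9 with CFA+PTX, and 5 of 6 gland genes with CFA+PTX. Of 6 adipocyte genes, 1 was called lower in H3RKO in untreated LN, 1 higher with CFA and 1 lower with CFA+PTX. Other genes of mature migratory DC had 0 of 15 called after injection and a median of 0.02, beside a median of 0.01 over all genes. Ccr7, the receptor that guides DC and naive T cells into the LN, read 11.70 in H3RKO CFA+PTX, 11.91 in WT CFA+PTX, 11.37 in H3RKO CFA and 11.48 in WT CFA, against 11.38 and 11.25 in the H3RKO untreated arrays and 11.41 and 11.33 in the WT untreated arrays. Both CFA+PTX arrays were above all others, and the difference with CFA+PTX was 0.47 ± 0.07 (limma adjusted p = 0.136). Its list did not share this. With CFA+PTX, 9 of the 15 mature migratory DC genes were lower and 6 higher, with a median of −0.01, beside 0.01 over all genes.

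Costimulatory ligands outside the 10 genes had 0 of 9 called with a median of 0.00 after injection, and costimulation receptors of T cells 0 of 9 with a median of −0.05. Among these receptors, Cd28 and Ctla4, the receptors of CD80 and CD86, differed by −0.09 ± 0.11 and 0.17 ± 0.09, and Cd40lg, the ligand of CD40, by 0.01 ± 0.05. The list of direct partners of the 10 genes had 0 of 7 called with a median of −0.04. Genes of the NF-κB feedback loop, which rise within hours of DC activation, had 0 of 10 called with a median of 0.02.

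**Figure D4:**
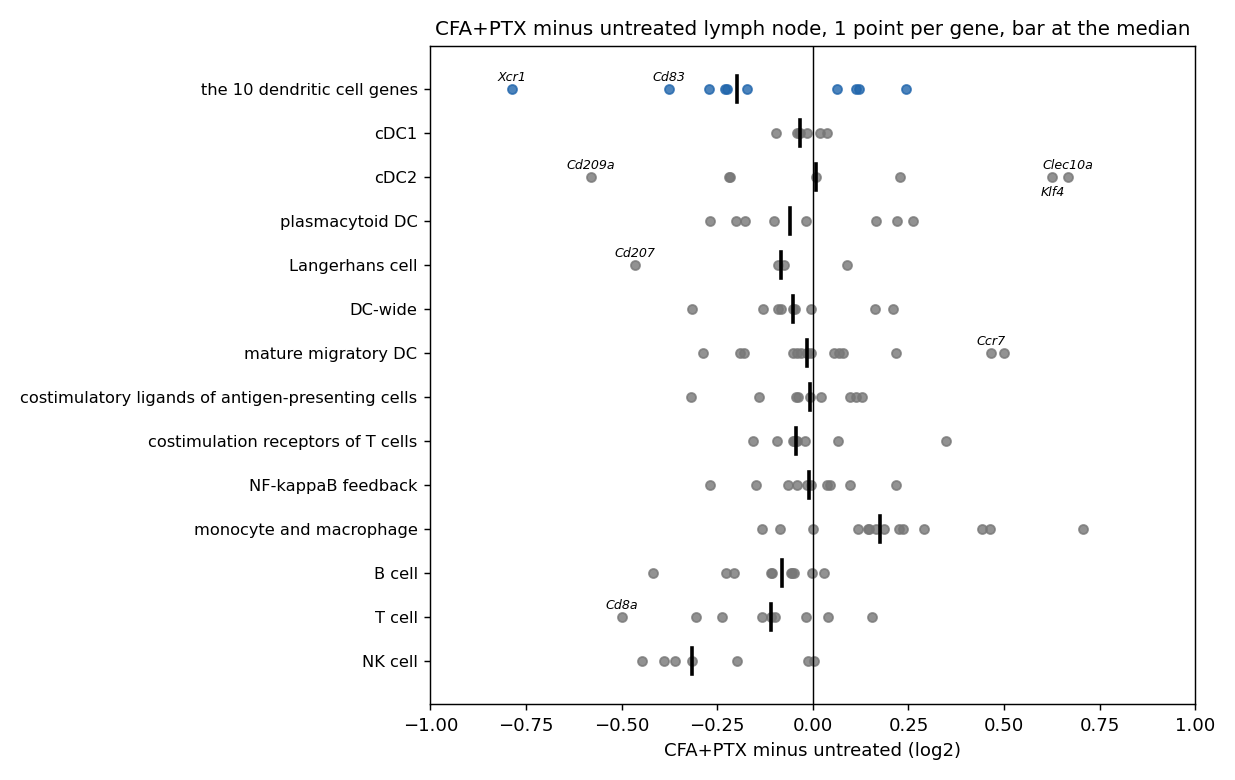
Log2 difference, CFA+PTX (2 arrays) minus untreated LN (4 arrays), of the 10 dendritic cell genes (top row) and of the measured genes of 13 marker lists, with 1 point per gene and a bar at each median. Xcr1 lies at −0.79, while the 7 other cDC1 genes lie between −0.10 and 0.04.

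Markers of other DC kinds differed in both directions, and the single genes that follow were picked after their values were seen. Conventional DC of the SIRPα kind had 0 of 7 called with a median of 0.10 after injection and a range of −0.69 to 0.49. Cd209a, a lectin of these DC, read 8.24 to 8.59 in the injected arrays, against 8.65 to 9.35 in the untreated arrays, a difference of −0.69 ± 0.13 (limma adjusted p = 0.196). Clec10a, a lectin of DC and macrophages, was 10.96 to 11.73 in the injected arrays, against 10.52 to 10.94 in the untreated arrays, a difference of 0.49 ± 0.08 (limma adjusted p = 0.139). In both genes the injected and the untreated arrays did not overlap, with opposite signs. Cd207, which encodes langerin and was listed for Langerhans cells, read 6.80 to 7.11 in the injected arrays, against 7.30 to 7.55 in the untreated arrays. Its difference was −0.46 ± 0.09 (limma adjusted p = 0.196). The 4 genes of the Langerhans cell list had 0 called, 3 lower and 1 higher, with a median of −0.09, and which cells gave the Cd207 signal was not tested. Plasmacytoid DC genes had 0 of 8 called with a median of 0.03, and genes shared by most DC, among them those of MHC class II, had 0 of 9 called with a median of −0.04.

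Beyond DC, 14 monocyte and macrophage genes had 0 called and a median of 0.10 after injection, 9 neutrophil genes 0 called and 0.02, 9 T cell genes 0 called and −0.10, 6 adipocyte genes 0 called and −0.46 and the 6 gland genes 0 called and −1.50. All 6 adipocyte genes were lower after injection, with a mean signal of 9.33 to 9.81 in the injected arrays, against 9.72 to 10.29 in the untreated arrays. The part of fat tissue taken with the LN in the values of the 10 genes was not tested.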

How the data were processed

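LN RNA from pools of mice was hybridized to Affymetrix GeneChip mouse arrays, 1 array per pool. The authors summarised probe intensities per probe set by Robust Multichip Average (RMA) in Partek Genomic Suite, which corrects background and applies quantile normalization, so that the deposited table holds log2 values (2.42 to 14.4). RMA carries no call of signal over background, and it tends to compress differences of dim probe sets. After 64 control probe sets were left out of 22690, 22626 were tested. The annotation paired 20380 of these with 1 gene. Each gene is represented by the brightest of its own probe sets, averaged over the 8 arrays.

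Treatment effects and the genotype effect over all treatments were estimated with genotype and treatment as additive terms (limma 3.58.1 in R 4.3.3, 4 residual degrees of freedom), called at a Benjamini-Hochberg adjusted p under 0.05. Genotype differences within a treatment and their interaction with treatment came from a model with a mean per group, whose 2 residual degrees of freedom come from the untreated pairs, so single injected arrays are assumed to vary like those. Single values were compared by an exact permutation test of 4 arrays against 4. The 10 genes, the lists and the rule for named genes were chosen with earlier results of these data known. The rule names the 10 genes, the partners Ccr4, Xcl1, Flt3l, Cd40lg, Cd28, Ctla4 and Ccr7, called genes of each list, and the genes most like any of the 10 that spans over 1 log2 unit by its brightest probe set, which none did. The models were tested on simulated data. The number of arrays limits the precision. Alternatives were no moderation, trend and robust fitting, other normalizations, filters, other probe sets per gene, other thresholds, a replicate block, each array left out and, added after seeing the data, both arrays of low gland signal left out. Plots were drawn with matplotlib. Proteins and the qRT-PCR were not analysed here.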

Additional observations from a re-analysis of the deposited data

How the results depend on the processing

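None of the 10 genes was called in any comparison under any alternative, with 1 exception. In CFA+PTX against untreated LN the count was 1 of 10, Xcr1, with trend and robust fitting (limma adjusted p = 0.0314). It was also 1 with the mean of all probe sets of a gene (limma adjusted p = 0.0413) and with a threshold of 0.1 for the adjusted p (0.0836). Xcr1 has 1 probe set, so the mean left its own values unchanged and altered only the other entries of the fit and adjustment. Over the 20 alternatives its difference ran from −0.86 to −0.73 and its adjusted p between 0.0314 and 0.704, the largest without WT CFA+PTX. The Xcr1 difference between injected and untreated arrays ran from −0.61 to −0.49, that of Cd83 from −0.40 to −0.26, and 2 or 3 of the 10 did not overlap. The genotype differences of Ccl17 (−0.48 to −0.22) and Ccl22 (−0.36 to −0.19) kept their sign. In untreated LN they ran from −0.59 to −0.24 and from −0.58 to −0.23 with each array left out. Some differences changed sign, among them that of Cd80 in untreated LN, which was 0.28 by the brightest probe set. With the mean of all probe sets, Fscn1 after injection was −0.093, and between genotypes Cd80 was −0.017 over all treatments and −0.0075 in untreated LN and Cd86 was 0.00021. Without both arrays of low gland signal, the genotype differences of Cd86 and Flt3 were 0.056 and 0.066. With each array left out, the genotype differences ran from −0.081 to 0.021 for Cd40, from −0.057 to 0.014 for Cd86, from −0.071 to 0.036 for Flt3 and from −0.068 to 0.050 for Fscn1, and the injection difference of Cd40 from −0.10 to 0.00099. The cause was not tested. Counts over all genes depended on the settings, with 0 to 16 after injection, 0 to 17 with CFA, 0 to 29 with CFA+PTX, 0 to 11 between CFA+PTX and CFA, 0 to 9 between genotypes and 0 to 9 for the dependence of genotype on CFA+PTX, and by the study's criterion 0 to 77 in untreated LN, 0 to 62 with CFA and 0 to 112 with CFA+PTX. The replicate numbers of the untreated arrays were checked for pairing. Same-numbered deviations from the group means correlated at 0.12 over probe sets, with only 2 pairs, and a replicate block called 0 of the 10, with Xcr1 at −0.79 and an adjusted p of 0.120 for CFA+PTX. It called 7 genes after injection, where the fit without it called 4.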

Other observations

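No gene of the 10 met the range of 1 log2 unit set for naming the genes most like it, but Xcr1 came near it with 0.99. The genes whose profiles over the 8 arrays were nearest to it, looked up after its values were seen, were Egr2 (mean absolute difference of the centred profiles 0.09), Tubb6 (0.10) and Elovl6 (0.10). Klf4, a transcription factor of DC and macrophages, read 9.51 in H3RKO CFA+PTX, 9.69 in WT CFA+PTX, 9.04 in H3RKO CFA and 9.13 in WT CFA, against 8.89 and 8.92 in the H3RKO untreated arrays and 9.05 and 9.02 in the WT untreated arrays. Both CFA+PTX arrays were above all others, with a difference of 0.63 ± 0.06 from untreated LN (limma adjusted p = 0.0625). Cd8a, which encodes a coreceptor of CD8 T cells and of some DC, was 10.05 to 10.42 in the injected arrays, against 10.36 to 10.79 in the untreated arrays, a difference of −0.37 ± 0.08 (limma adjusted p = 0.244). These genes were picked after their values were seen, and none was called.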
